A study of Mus musculus with 14 samples.

Results

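DNase-seq of mouse liver was compared between 240 min and 30 min after a single pulse of growth hormone (GH). The measurement marks accessible chromatin, because DNase I cuts DNA most readily where it is not wrapped around nucleosomes. The units described are regions, made by merging peaks that shared at least 1 bp among the 4 lists called separately in the 2 pools of 240 min and the 2 pools of 30 min. There were 32566 such regions, whereas the lists of all 14 libraries of the series merged into 48248. Both groups were male CD-1 mice, 7 weeks old, whose pituitary had been removed (hypox) and which received 125 ng of recombinant rat GH per g body weight into the peritoneum. Each pool held DNase-released fragments of 3 livers, so a pool is the replicate. The spread between pools is one between averages over animals, and not the spread between single animals. Further libraries used below came from hypox males without GH (2 pools), hypox males 90 min after the same GH dose (2 pools), hypox females (2 pools, 1 of them of 2 livers) and intact females (4 pools). Removal of the pituitary takes away the other pituitary hormones together with GH, and all hypox groups share this. The 240, 90 and 30 min libraries carry the code G92 in their titles, and the hypox males without GH carry G103, so GH and code cannot be told apart in a comparison with them. Hypox females carry G92. Of the intact females, pools 1 and 2 carry G92 and pools 3 and 4 carry G93. The labels give no group killed 240 or 30 min after vehicle alone, so time after GH and time after the injection cannot be told apart.

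GH binds its receptor on hepatocytes and activates the kinase JAK2, which phosphorylates the transcription factor STAT5. Phosphorylated STAT5 enters the nucleus and binds paired TTC and GAA half-sites, and negative regulators such as the SOCS and CISH proteins then end the signal. In rodents, males secrete GH in separate pulses and females more continuously, and many liver genes that differ between the sexes follow this pattern.

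The sequences that the comparison turns on are windows of up to 200 bp around the peak summit, read from mm9 on the plus strand. The first 7 come from regions that were called or higher at 30 min and hold the STAT5 consensus TTCNNNGAA, in capitals. They lay in an intron of Bcl6 (chr16:23981359-23981558), 30.0 kb upstream of Gclc (chr9:77572211-77572410), in an intron of Igf1 (chr10:87336286-87336485), in the promoter of Cish (chr9:107198985-107199014), and in introns of St6gal1 (chr16:23326827-23327026), Ddc (chr11:11788252-11788451) and Immt (chr6:71790824-71791023). The last 2 come from regions that were higher or called at 240 min and hold the HNF6 motif ATCAATA or its reverse complement TATTGAT, in capitals. They lay in an intron of Cyp17a1 (chr19:46742845-46743044) and in an intron of Cyp7b1 (chr3:18066123-18066322).
Bcl6 intron: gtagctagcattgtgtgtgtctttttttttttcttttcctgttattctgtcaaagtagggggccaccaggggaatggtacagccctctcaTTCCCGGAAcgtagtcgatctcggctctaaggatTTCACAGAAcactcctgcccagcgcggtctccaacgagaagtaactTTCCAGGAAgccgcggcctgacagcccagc
upstream of Gclc: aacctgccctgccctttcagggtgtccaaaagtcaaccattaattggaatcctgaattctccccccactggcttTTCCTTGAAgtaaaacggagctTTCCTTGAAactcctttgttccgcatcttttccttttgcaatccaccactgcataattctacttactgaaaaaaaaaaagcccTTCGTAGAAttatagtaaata
Igf1 intron: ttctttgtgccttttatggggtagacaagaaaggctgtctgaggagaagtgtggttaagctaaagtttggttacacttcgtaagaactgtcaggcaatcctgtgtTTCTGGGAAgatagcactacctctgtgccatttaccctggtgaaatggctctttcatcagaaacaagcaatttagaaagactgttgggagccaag
Cish promoter: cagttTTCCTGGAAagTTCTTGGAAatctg
St6gal1 intron: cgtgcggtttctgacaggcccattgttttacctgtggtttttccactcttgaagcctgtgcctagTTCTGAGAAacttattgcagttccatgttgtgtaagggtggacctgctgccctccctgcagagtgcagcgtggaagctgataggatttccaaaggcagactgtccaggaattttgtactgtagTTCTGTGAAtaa
Ddc intron: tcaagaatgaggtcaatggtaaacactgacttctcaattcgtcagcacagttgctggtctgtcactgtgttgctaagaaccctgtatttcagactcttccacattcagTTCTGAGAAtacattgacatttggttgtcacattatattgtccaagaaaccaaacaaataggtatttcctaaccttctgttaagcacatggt
Immt intron: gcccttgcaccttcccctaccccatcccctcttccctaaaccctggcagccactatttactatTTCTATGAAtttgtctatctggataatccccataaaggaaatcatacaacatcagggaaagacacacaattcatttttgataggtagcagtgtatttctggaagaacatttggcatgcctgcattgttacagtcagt
Cyp17a1 intron: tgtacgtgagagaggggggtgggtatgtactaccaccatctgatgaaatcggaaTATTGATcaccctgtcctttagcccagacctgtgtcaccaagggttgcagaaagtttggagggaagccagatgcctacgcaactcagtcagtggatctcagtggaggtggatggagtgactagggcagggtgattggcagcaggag
Cyp7b1 intron: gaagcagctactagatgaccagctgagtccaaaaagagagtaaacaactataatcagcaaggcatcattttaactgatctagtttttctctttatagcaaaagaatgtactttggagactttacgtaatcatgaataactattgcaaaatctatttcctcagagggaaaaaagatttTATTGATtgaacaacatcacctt
The Bcl6 and Gclc windows hold 3 consensus sites each, and the Cish and St6gal1 windows hold 2 each.

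The 240 min pools had 13813596 and 14658860 tags with 28073 and 18875 peaks on the autosomes, X and Y. The 30 min pools had 14992887 and 16733489 tags with 22205 and 21431 peaks. Pool 1 of 240 min stood apart from the other 3 libraries. Pileup, the number of extended tags that overlap at a peak's summit, is given as PPM, which is pileup per 1000000 tags of the library. The median of pool 1 was 3.26 PPM over the regions called in all 4 libraries, against 1.91 PPM in pool 2 of 240 min and 2.13 and 1.97 PPM in the 30 min pools. For this reason, values are given in PPM and also after each library was centred on its median (median-centred). Of 14 shared hepatocyte genes, such as Alb and Apoa1, 13 had a region. Of the markers of other cells, 9 of 10 endothelial, 4 of 8 cholangiocyte, 4 of 8 erythroid, 3 of 10 stellate, 1 of 10 Kupffer and 0 of 10 lymphocyte genes had a region. Markers of hepatocytes and of endothelial cells were thus covered almost completely, those of lymphocytes not at all. In whole tissue, fewer cells with an open region and less cutting per cell cannot be told apart.

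STAT5 sites differed between the times. Among the strongest 17684 peaks of each library, as many as the shortest of the 14 lists held, the consensus lay within 100 bp of the summit in 7.18% and 7.59% of peaks in the 240 min pools. In the 30 min pools it did so in 14% and 11.9%. Both 240 min pools were below both 30 min pools, but 2 pools against 2 allow no exact two-sided permutation p below 0.333. The 90 min pools, at 12.6% and 12%, lay near the 30 min pools. Hypox males without GH had 5.27% and 5.05%, hypox females without GH had 5.15% and 6.54%, and intact females had 6.38% to 9.14%. By this share the 240 min pools sat above the hypox males without GH and within the range of the intact females. The top of that range came from pool 3 of the intact females, of code G93. The other intact female pools had 7.23%, 6.7% and 6.38%. A second measure used the same regions in every library. At 4941 regions outside promoters called in all 14 libraries, the 445 with the consensus had a median log2 pileup that exceeded that of the others by 0.149 and 0.278 at 240 min, and by 0.752 and 0.626 at 30 min. At 90 min the excess was 0.716 and 0.745, and in hypox males without GH it was -0.178 and -0.186. Hypox females without GH gave -0.158 and 0.222, so their second pool was near the 240 min pools. Intact females gave 0.0171 to 0.17, so by this measure pool 2 of 240 min was above all 4 of them.

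**Figure D1:**
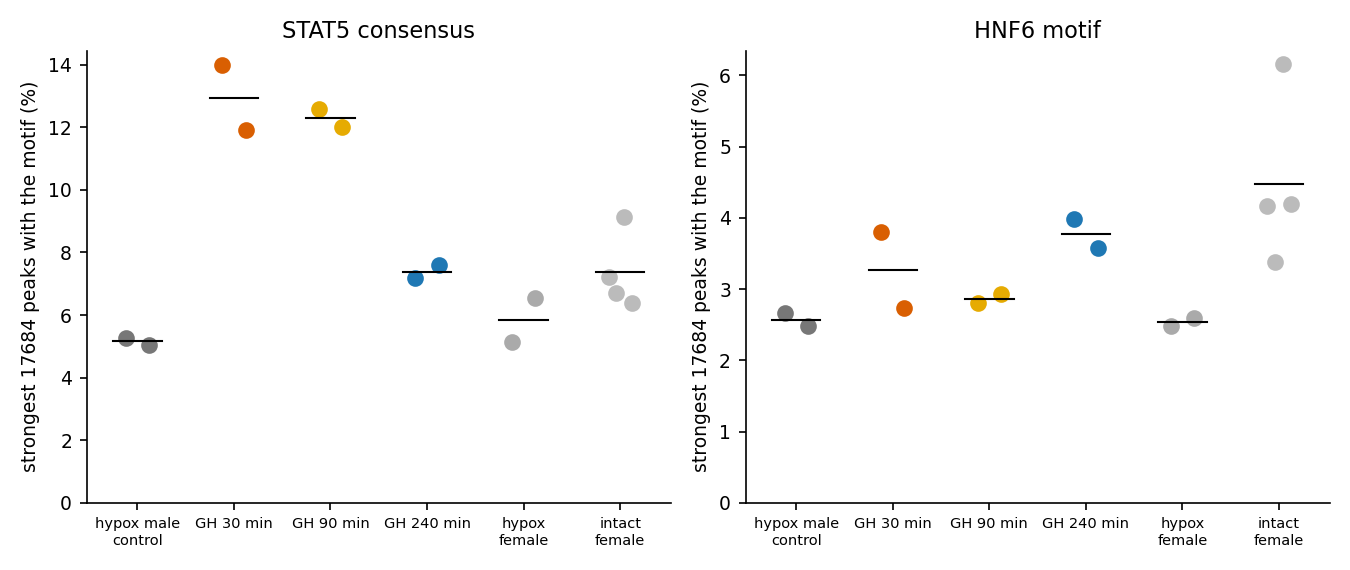
Percentage of the strongest 17684 peaks of each library with the STAT5 consensus (left) or the HNF6 motif (right) in 200 bp around the summit. Points are pools and lines are group means. STAT5 shares of 7.18% and 7.59% at 240 min lie below the 14% and 11.9% at 30 min.

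The HNF6 motif ran the other way by the second measure. HNF6, encoded by Onecut1, is a liver transcription factor whose expression GH raises in the rat. At the same 4941 regions, the 258 with the motif exceeded the others by 0.285 and 0.241 (log2 of pileup) at 240 min, against 0.0543 and -0.122 at 30 min. The 90 min pools gave 0 and 0.0406, and hypox males without GH gave -0.178 and -0.199. Both 240 min pools were above both pools of each of these groups, but not above all intact females. Intact females of code G92 gave 0.186 and 0.0814, and those of code G93 gave 0.365 and 0.164. Only the pool at 0.365 was above the 240 min pools. The share of strong peaks with the motif separated the times less. It was 3.98% and 3.57% at 240 min and 3.8% and 2.74% at 30 min, so the ranges overlapped.

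By presence of a call, 1297 regions (3.98% of 32566) were called in both 240 min pools and neither 30 min pool, and 1143 (3.51%) were called in both 30 min pools and neither 240 min pool. All 4 pools called 14334 regions (44%). The remaining 15792 were called in only some pools of a time, among them 6123 called in 1 pool of 240 min and no pool of 30 min. A region without a call was not detected at that depth and cutoff, which does not show that it was closed. The lowest pileup of any called peak was 0.507 and 0.546 PPM in the 240 min pools and 0.534 and 0.478 PPM in the 30 min pools. The counts are descriptions, since 2 pools against 2 cannot reach the threshold in an exact test. They depended on each library, as 1 pool stood for a time where another was left out. Without pool 1 of 240 min, 1741 regions were called at 240 min only and 3046 at 30 min only. Without pool 2 of 240 min the counts were 6976 at 240 min only and 1285 at 30 min only. Without pool 1 of 30 min they were 2346 at 240 min only and 2300 at 30 min only, and without pool 2 of 30 min they were 2304 at 240 min only and 2946 at 30 min only.

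The classes differed in motif content. The STAT5 consensus was within 100 bp of the summit in 45 of the 1297 regions called at 240 min only (3.47%) and in 457 of the 1143 regions called at 30 min only (40%). Over all 32566 regions it was present in 10.8%. Half-sites set at other distances served as a comparison, without being taken as sites that STAT proteins cannot bind. With a spacer of 2 bases (TTCNNGAA) they were in 4.78% of the regions called at 240 min only and 9.62% of those called at 30 min only. With a spacer of 4 bases they were in 2.93% of the regions called at 240 min only and 12.2% of those called at 30 min only. Over all regions these shares were 5.73% and 5.51%. The excess at 30 min was thus smaller for either spacing than for the consensus. The HNF6 motif was in 6.86% of the regions called at 240 min only and 3.06% of those called at 30 min only, against 3.89% of all regions. The AP-1 motif TGANTCA, bound by FOS and JUN proteins, was in 11.5% of the regions called at 240 min only, 8.22% of those called at 30 min only and 7.78% of all regions. Promoters, meaning summits no more than 1000 bp from a transcription start, made up 19.5% of the regions called at 240 min only, 9.01% of those called at 30 min only and 30.1% of all regions. Outside promoters the STAT5 shares were 3.54% at 240 min only and 40.7% at 30 min only. The HNF6 shares there were 8.14% at 240 min only and 3.27% at 30 min only, against 5.17% of all regions outside promoters. For AP-1 they were 12.7%, 8.56% and 9.72% in the same order.

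**Figure D2:**
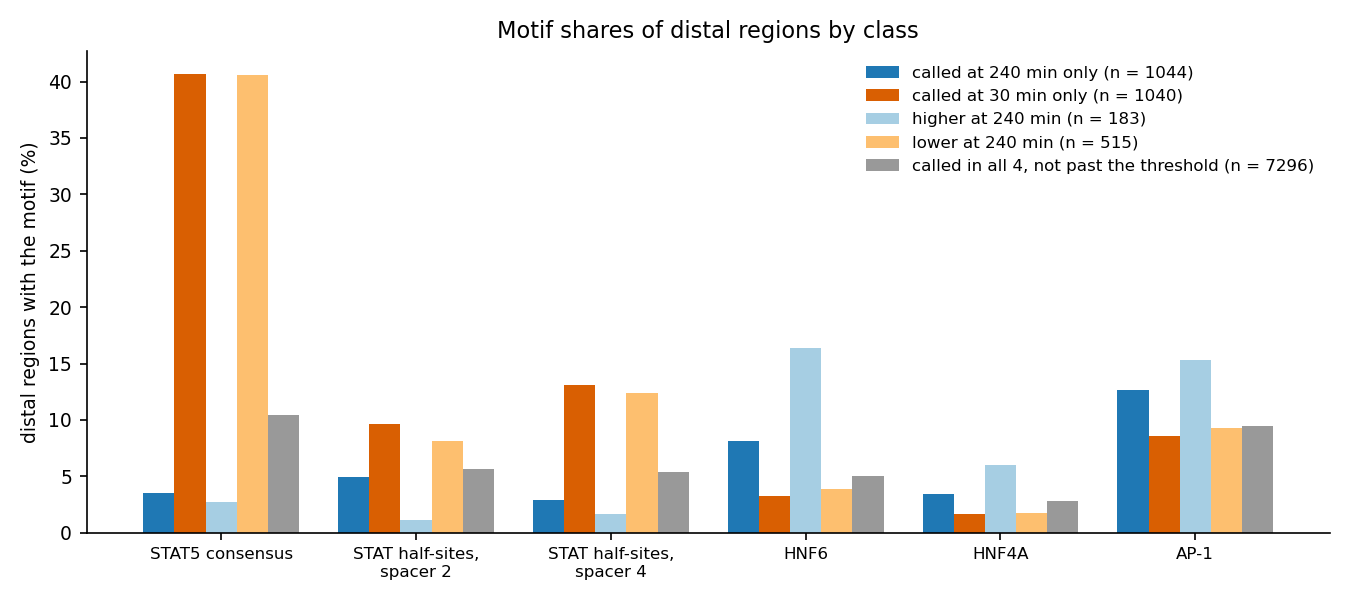
Percentage of regions outside promoters with each motif in 200 bp around the summit, by class of region. Bars for regions called at 30 min only (40.7%) and lower at 240 min (40.6%) stand well above the others for the STAT5 consensus, and the bar for regions higher at 240 min (16.4%) is the tallest for HNF6.

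Calls in libraries that the classes did not use are given beside the share of all 32566 regions that the same library called. Of the regions called at 30 min only, both pools of 90 min called 672 (58.8%) and neither called 164 (14.3%). Pool by pool the 90 min shares were 80.1% and 64.3% of these regions, against 69.6% and 60.6% of all regions, so the second pool was close to the share of all regions. Both pools were well above the 45.8% and 31.5% that they called of the partly called regions. Hypox males without GH called 19.9% and 25% of the regions called at 30 min only, far below the 66.1% and 71.2% of all regions. Of the partly called regions they called 44.1% and 52%. Of the regions called at 30 min only, 810 (70.9%) were called in neither of these pools. The consensus was in 396 of those 810 regions (48.9%), but in 25 of the 181 regions that both pools without GH called (13.8%). Regions called at 240 min only had another pattern. The 90 min pools called 41% and 29.8% of them, and hypox males without GH called 57.9% and 69.9%. Both pools without GH called 651 of the 1297 (50.2%), and 291 (22.4%) were called in neither. Against the shares of all regions, calls of the regions called at 240 min only were thus fewer at 90 min and somewhat fewer or about as frequent without GH. Against the shares of the partly called regions, they were only slightly fewer at 90 min and more frequent without GH. The reading thus depends on the regions used for comparison. In 249 regions (19.2%) both pools without GH and both of 240 min had a call, with none at 30 or 90 min. Intact females called 50.5% to 81.4% of the regions called at 240 min only, near their 50.6% to 79.5% of all regions, and 22.7% to 43.2% of those called at 30 min only. Of the partly called regions they called 38.5% to 65.5%.

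**Figure D3:**
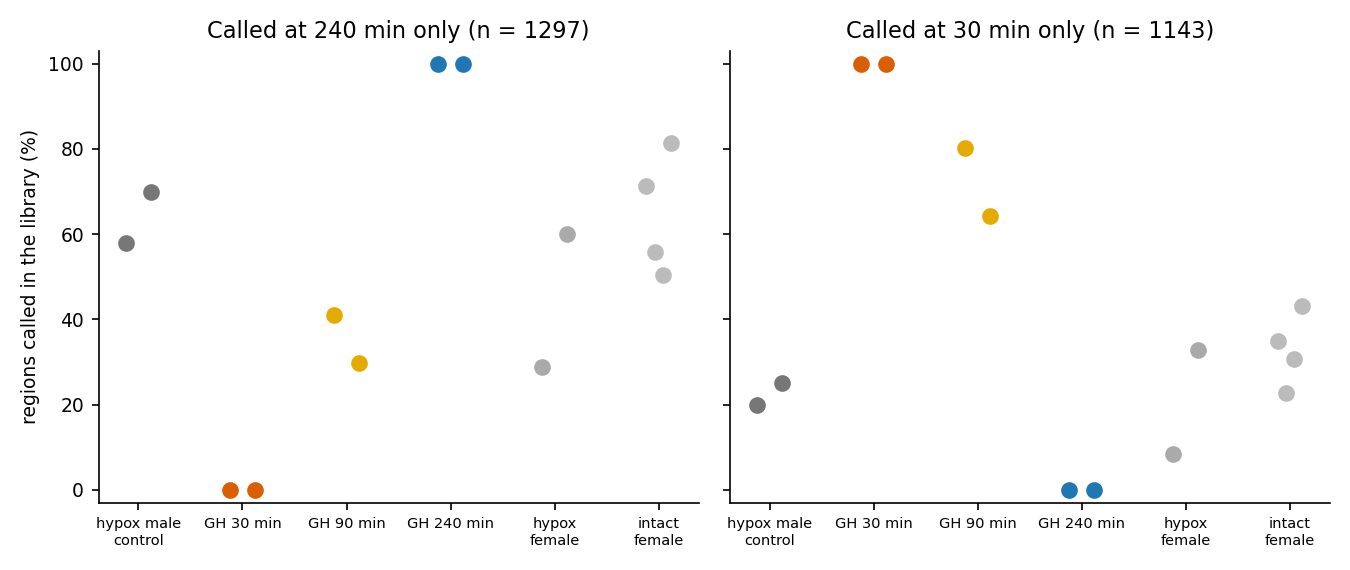
Percentage of the regions called at 240 min only (left) and at 30 min only (right) that each library called. Points are pools, and the values of 100% and 0% at 240 and 30 min follow from how the classes were made. The 90 min pools called 64.3% and 80.1% of the regions on the right.

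Where all 4 pools had a peak, the size of the change could be tested. On the PPM scale, 1 of 14334 regions was higher at 240 min (0.00698%) and 4 were lower (0.0279%) by limma at a Benjamini-Hochberg adjusted p below 0.05. At an unadjusted p below 0.05 the counts were 634 and 239. The median region was 0.324 higher at 240 min on the log2 scale. After median centring, 195 regions were higher at 240 min (1.36%) and 577 were lower (4.03%), and all 5 regions called on the PPM scale were among them. With pool 1 of 240 min left out, the median-centred counts were 48 higher and 332 lower, and with pool 2 left out they were 110 higher and 530 lower. Without pool 1 of 30 min they were 200 higher and 205 lower, so the 2 counts were then about equal, and without pool 2 of 30 min they were 127 higher and 598 lower. Below, higher and lower refer to the median-centred test, and values in PPM stand beside it.

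The consensus was in 5 of the 195 higher regions (2.56%), 234 of the 577 lower regions (40.6%) and 7.85% of the 13562 tested regions that passed in neither direction. The window searched was centred on the summit of the library with the highest PPM. With the whole region searched, which does not depend on that summit, the shares were 10.3%, 63.8% and 20.5% in this order. The change followed the number of sites. Of the 13030 tested regions with 0 sites, 2.63% were lower at 240 min. Of the 1207 regions with 1 site, 16.8% were lower, and of the 97 regions with 2 or more sites, 32% were lower. The median change, 240 min minus 30 min, was 0.0658, -0.31 and -0.637 on the median-centred log2 scale in these 3 sets. Within the window searched, which ends 100 bp from the summit, the median distance of the site was 43 bp in the regions called at 240 min only, 32 bp in those called at 30 min only, 35 bp in the lower regions and 38 bp in all regions with a site. The HNF6 motif was in 15.9% of the higher regions, 4.33% of the lower regions and 3.07% of those that did not pass. The HNF4A motif CAAAGTCCA, bound by a nuclear receptor that maintains hepatocyte identity, was in 5.64% of the higher regions, 1.56% of the lower regions and 1.81% of those that did not pass. Over all 32566 regions it was in 1.74%. Promoters made up 6.15% of the higher regions, 10.7% of the lower ones and 46.2% of those that did not pass. Outside promoters the HNF6 shares were 16.4%, 3.88% and 5.03% in this order, so the lower regions were then below those that did not pass. The HNF4A shares there were 6.01%, 1.75% and 2.85%.

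**Figure D4:**
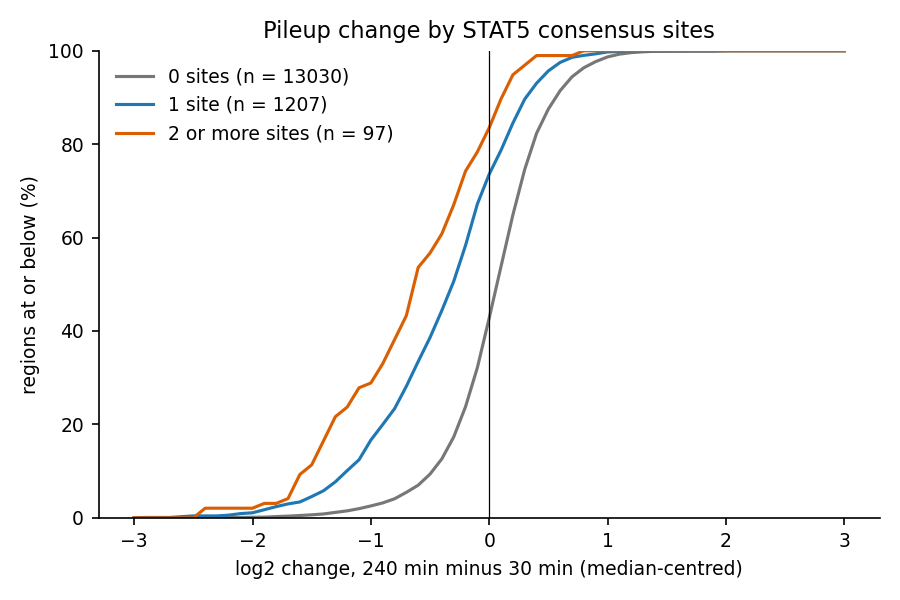
Cumulative percentage of the regions called in all 4 pools by median-centred log2 change of pileup, 240 min minus 30 min, for regions with 0 (n = 13030), 1 (n = 1207) and 2 or more (n = 97) STAT5 consensus sites. The curves shift to lower values as the number of sites grows, with medians of 0.0658, -0.31 and -0.637.

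Lower regions were also followed into libraries that the test did not use. Hypox males without GH called 76.4% and 81.6% of the 577, below the 95.5% and 96.6% of the tested regions that did not pass. Both pools called 422 (73.1%) and neither called 87 (15.1%). The 90 min pools called all 577, but also 97.5% and 94.9% of the regions that did not pass. In the 348 of them with a peak in all 10 libraries of the hypox groups, the median difference from the 30 min mean was -0.203 and -0.22 in the 90 min pools, and -1.44 and -1.4 in hypox males without GH. These share the 30 min pools with the test that chose the regions, and regions without a peak in any of the 10 libraries were left out. In the same regions the 240 min pools gave -1.27 and -1.18. For 174 higher regions the 240 min pools gave 1.05 and 0.981, the 90 min pools gave -0.00679 and 0.148, and hypox males without GH gave 0.498 and 0.456. The 240 min values were used to choose both sets, so no order of the 240 min level and the level without GH is read from them.

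Of the 4 regions that fell on the PPM scale, 3 are described. Near Gm1631, a region at chr2:71577352-71578134 with 1 consensus site had 1.23 and 0.75 PPM at 240 min and 6.2 and 6.16 PPM at 30 min (log2 change -2.68, SE 0.57, limma adjusted p = 0.0154). The other two lay in introns of Madd, a regulator of MAP kinase signalling (log2 change -2.46), and of Ddc, the dopa decarboxylase that makes dopamine and serotonin (log2 change -2.37). In Ddc the pileup was 0.724 and 0.887 PPM at 240 min and 5.14 and 3.35 PPM at 30 min. In none of these 3 regions did the pools of the 2 times overlap, and none had a peak in hypox males without GH. Next by p were introns of Gabbr2, a GABA receptor subunit, and Immt, an organiser of mitochondrial cristae, which passed after centring (limma adjusted p = 1.05e-05 for both). The Immt region had 2.68 and 2.25 PPM at 240 min and 13.4 and 9.98 PPM at 30 min. An intron of St6gal1, a sialyltransferase of the secretory pathway, had 1.38 and 2.11 PPM at 240 min and 9.07 and 6.87 PPM at 30 min (median-centred log2 change -2.49, SE 0.34, limma adjusted p = 0.000333).

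In the other direction, 1 region passed on the PPM scale, 56.1 kb upstream of F730048M01Rik, with 10.8 and 8.6 PPM at 240 min and 2.27 and 1.31 PPM at 30 min (log2 change 2.48, SE 0.55, limma adjusted p = 0.0302). The next by p passed after centring only. A region 125 kb upstream of Eci2, an enzyme of fatty acid oxidation, had 6.95 and 5.93 PPM at 240 min and 1.4 and 1.37 PPM at 30 min. In an intron of Nr1i2, which encodes the xenobiotic receptor PXR, the values were 4.34 and 3.96 PPM at 240 min and 1.33 and 0.717 PPM at 30 min (median-centred log2 change 1.80, SE 0.33, limma adjusted p = 0.00348). The 90 min pools, at 1.16 and 0.736 PPM, were close to the 30 min pools there. Upstream of Cyp2d10, a cytochrome P450 gene, the pileup was 6.3 and 4.23 PPM at 240 min and 1.8 and 0.956 PPM at 30 min. Hypox males without GH had 4.88 and 3.89 PPM. That region was thus low at 30 min beside both the later time and the hypox males without GH, which carry another code. Hypox females without GH, of code G92, had 1.96 and 2.64 PPM, nearer the 30 min pools. Regions in an intron of Npc1, a lysosomal cholesterol transporter, and upstream of Edaradd, an adaptor of ectodysplasin signalling, also passed after centring. The 240 min pools differed widely at Npc1, with 14.2 PPM in pool 1 and 3.34 PPM in pool 2, against 1.93 and 1.2 PPM at 30 min. At Edaradd the values were 3.33 and 2.73 PPM at 240 min and 0.934 and 0.777 PPM at 30 min.

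**Figure D5:**
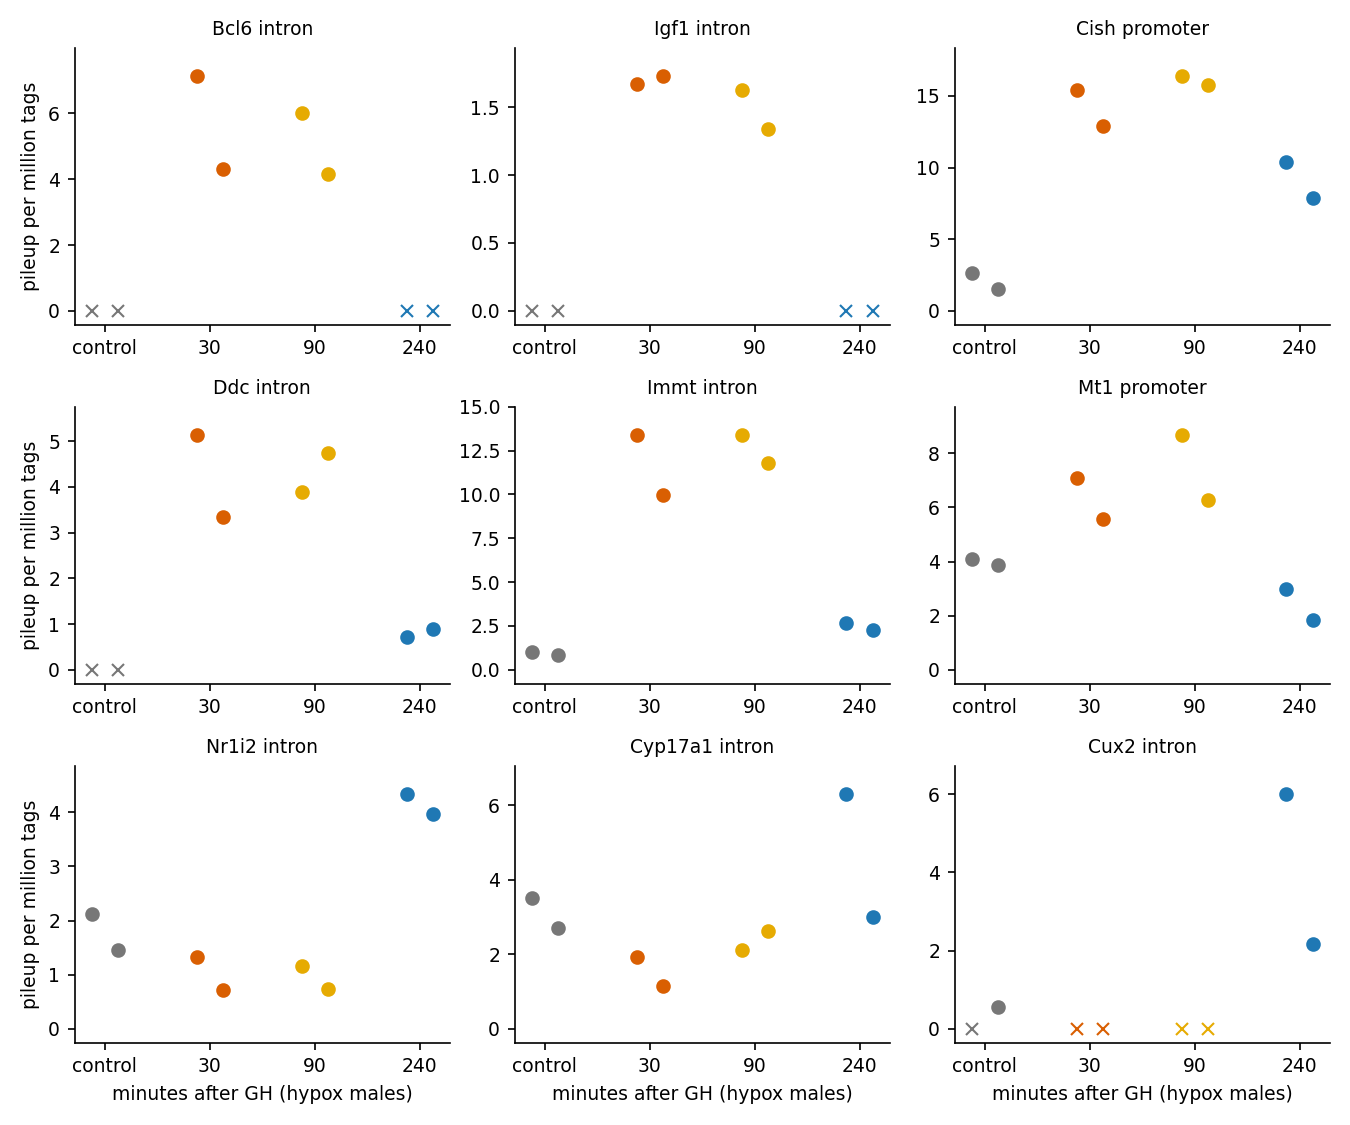
Pileup in PPM at 9 named regions in each pool of hypox males without GH (control) and 30, 90 and 240 min after GH. Points are pools and crosses mark pools without a peak, drawn at 0. The Cish, Ddc, Immt and Mt1 regions are lower at 240 min than at 30 min in both pools, and the Nr1i2 and Cyp17a1 regions are higher. The Bcl6 and Igf1 regions have no peak at 240 min and the Cux2 region has none at 30 min, so these have no value there.

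Regions called at 1 time only were ranked by the authors' fold enrichment, the pileup over the local background in the same library. At 30 min only, the highest was 15.5 kb upstream of Ces3b, a carboxylesterase gene, with a fold of 15.1 ± 4.65 (SD, n = 2). The next lay near Nrp2, a neuropilin (12.9 ± 0.344), in an intron of Fcgr2b, the inhibitory IgG receptor (12.9 ± 0.423), and in an intron of the transporter gene Slc22a23 (12.9 ± 1.41). Then came an intron of the interleukin 1 receptor gene Il1r1 (12.8 ± 3.4), the region upstream of Gclc, the catalytic subunit of the enzyme that starts glutathione synthesis (12.7 ± 2.06), a region near the small GTPase gene Rnd3 (12.5 ± 1.95) and an intron of the urokinase receptor gene Plaur (12.1 ± 3.87). Of these 8 regions, 6 held the consensus, and those near Il1r1 and Rnd3 did not. All 8 were called in both 90 min pools, and the region near Rnd3 was the only one of them called in hypox males without GH. The Gclc region had 8.07 and 5.38 PPM at 30 min and 5.88 and 4.75 PPM at 90 min.

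At 240 min only, the highest were in an intron of Nav2, a neuron navigator gene (11.2 ± 1.94), and 27.0 kb downstream of the start of Ugt2b38, a glucuronosyltransferase (11.2 ± 4.28). Introns of Ank3, an ankyrin gene (10.7 ± 4.23), and of Cux2, a transcription factor expressed mainly in female mouse liver (10.2 ± 2.51), followed. The others lay near Rpl37a (10.1 ± 0.714), in an intron of Camk1d, a calmodulin-dependent kinase (9.88 ± 4.61), near Bdnf, a neurotrophin (9.87 ± 5.66), and in an intron of Gas7 (9.83 ± 1.01). None of these 8 held the STAT5 consensus, and those near Ugt2b38 and Bdnf held 1 HNF6 motif each. The Cux2 region had 6.01 and 2.18 PPM at 240 min and no peak at 30 min. It had no peak at 90 min either, and one of 0.564 PPM in 1 pool of hypox males without GH. It was called in all 4 intact female pools.

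Among 20 direct targets of GH and STAT5, 18 had a region. Regions called at 30 min only occurred at 5 of them (Bcl6, Ghr, Igf1, Serpina3k and Serpina3n), regions called at 240 min only at 3 (Bcl6, Stat5a and Stat5b, the last 2 through 1 shared region), lower regions at 2 (Cish and Igf1) and higher regions at 0. Over all 12520 genes with a region, 5.93% had one called at 30 min only, 7.67% one called at 240 min only, 2.88% a lower one and 1.08% a higher one. The 18 genes had 69 regions, and a gene with more regions has more chances of one in a class, which these shares do not match. Per region, 3.51% of all 32566 were called at 30 min only and 3.98% at 240 min only. The median change of the 32 tested regions of the list was -0.222 on the median-centred log2 scale, against 0.0424 for all tested regions. On the PPM scale the medians were 0.0604 for the list and 0.324 for all tested regions.

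The negative regulators and feedback genes differed in extent. The promoter of Cish, an inhibitor of the GH receptor pathway, had 10.4 and 7.85 PPM at 240 min and 15.4 and 12.9 PPM at 30 min (median-centred log2 change -0.92, SE 0.17, limma adjusted p = 0.00348, against 0.89 on the PPM scale). Its level at 240 min stayed above the 2.64 and 1.54 PPM of hypox males without GH. Socs2, the main feedback inhibitor of GH signalling in the liver, had 5 regions, of which 3 were tested and did not pass and the other two were called in some pools of a time. Bcl6 encodes a repressor that competes with STAT5 for sites. Its intron region with 3 consensus sites had 7.14 and 4.3 PPM at 30 min, 6 and 4.15 PPM at 90 min, and no peak at 240 min or in hypox mice without GH. A region 7.68 kb upstream of Bcl6 was called at 30 min only too. Another Bcl6 intron region, 6.15 kb downstream of the start and without a consensus site, had 3.84 and 2.11 PPM at 240 min and no peak at 30 min.

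Igf1 encodes the growth factor through which GH acts on other tissues. It had 12 regions. Those 10.9 and 12.3 kb downstream of the start were called at 30 min only, with 1.4 and 1.49 PPM at the first and 1.67 and 1.73 PPM at the second. The second holds 1 consensus site, and each also had a call in the 2 pools of 90 min but in no pool of hypox males without GH. A region 5.29 kb downstream of the start had 1.88 and 1.36 PPM at 240 min and 3.13 and 3.05 PPM at 30 min (median-centred log2 change -1.23, SE 0.28, limma adjusted p = 0.014). One at 54.6 kb had 3.04 and 1.43 PPM at 240 min and 5.27 and 3.82 PPM at 30 min (median-centred log2 change -1.39, SE 0.26, limma adjusted p = 0.00429). These 4 Igf1 regions, lower or without a call at 240 min, are named because they were in a class or passed the test. Of the other Igf1 regions, 5 were tested and did not pass, and 3 were called in only some pools of a time. At Ghr, which encodes the GH receptor, 2 of 11 regions were called at 30 min only, at 1.31 to 1.67 PPM. Of the serine protease inhibitors, the promoter regions of Serpina3k and Serpina3n were called at 30 min only, at 2.47 and 0.896 and at 2 and 1.37 PPM. These genes belong to a family of near-identical copies, so their calls may depend on how reads were placed.

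Acute-phase genes, which hepatocytes switch on in inflammation, included several with a lower region. Of 18 such genes, all with a region, 6 had a lower one (Fga, Fgb, Fgg, Saa1, Saa2 and Saa3, where Saa1 and Saa2 share 1 region), against 2.88% of all genes with a region. The 6 genes lie in 2 clusters, the fibrinogen genes on chromosome 3 and the Saa genes on chromosome 7. They are therefore not separate cases, and the number of regions per gene was not matched. Per region, 4.03% of all 14334 tested were lower. A higher one was found at 0 of the 18, against 1.08% of all genes. Orm2 had a region called at 240 min only, against 7.67% of all genes. Fga and Orm1 had one called at 30 min only, against 5.93%. The median of the 32 tested regions of the list was -0.279 on the median-centred log2 scale and 0.00335 on the PPM scale. The region shared by Saa1 and Saa2, serum amyloid genes, had 3.55 and 2.52 PPM at 240 min and 6.14 and 5.5 PPM at 30 min (median-centred log2 change -1.24, SE 0.23, limma adjusted p = 0.00393). Near Fga and Fgg, genes of fibrinogen chains, a region at chr3:82819794-82820889 had 7.67 and 4.84 PPM at 30 min, 12.3 and 6.96 PPM at 90 min, and no peak at 240 min or in hypox males without GH. In 1 of the 2 hypox female pools it reached 8.95 PPM. The promoter of the metallothionein gene Mt1 had 2.97 and 1.84 PPM at 240 min and 7.07 and 5.56 PPM at 30 min (median-centred log2 change -1.70, SE 0.23, limma adjusted p = 0.00039). In hypox females, which received no GH, the 2 pools differed at this promoter, with 3.55 and 11.8 PPM. They also differed at the shared Saa1 and Saa2 region, with 1.96 and 6.61 PPM. What sets the hypox female pools apart, and its part in these regions, was not tested. Among 15 glucocorticoid-responsive genes, Mt1 and Mt2 had a lower region, Fkbp5 and Zbtb16 one called at 30 min only, and Tsc22d3 one called at 240 min only.

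Hepatocyte transcription factors included several with a higher region. Of 20 such genes, all with a region, 4 had a higher region (Nr1h4, Nr1i2, Nr1i3 and Nr5a2) and 0 a lower one, against 1.08% and 2.88% of all genes with a region. A region called at 240 min only occurred at 5, against 7.67% of all genes, and one called at 30 min only at 5, against 5.93%. These 20 genes had 99 regions, and a gene with more regions has more chances of one in a class. Per region, 3.98% of all 32566 were called at 240 min only and 3.51% at 30 min only. The gene counts of these one-time classes are thus not read as a result about the list. The median of the 51 tested regions was 0.157 on the median-centred log2 scale. The 4 with a higher region encode nuclear receptors, as do Hnf4a, Nr1h3, Nr0b2, Rxra, Ppara and Esr1 of the same list, which had 0 higher regions. Upstream of Nr1i3, which encodes the constitutive androstane receptor, a region had 12.7 and 7.64 PPM at 240 min and 4.2 and 3.47 PPM at 30 min (median-centred log2 change 1.08, SE 0.20, limma adjusted p = 0.00353). The transcription start nearest to this region was that of Pcp4l1, at 8.16 kb. It was linked to Nr1i3 only because it lay within 10 kb upstream. In an intron of Nr5a2, a regulator of bile acid synthesis, the values were 8.18 and 4.23 PPM at 240 min and 3.07 and 1.73 PPM at 30 min. Foxa3 and Prox1 had a region of both one-time classes. For Prox1, an intron region 22.7 kb downstream of the start had 1.81 and 0.955 PPM at 240 min and no peak at 30 min, while one at 45.3 kb had 2.13 and 1.67 PPM at 30 min and no peak at 240 min.

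Genes that differ between male and female liver are read against the shares of all genes with a region, which were 7.67% for a region called at 240 min only, 5.93% at 30 min only, 1.08% for a higher and 2.88% for a lower one. The number of regions per gene was not matched. Of 15 male-biased genes with a region, 1 (Cyp7b1) had a region called at 240 min only, 3 (C8a, Egfr and Selenbp2) one called at 30 min only, 0 a higher and 1 (C8b) a lower one. Of 17 female-biased genes with a region, 2 (Cux2 and Cyp4a10) had a region called at 240 min only, 1 (Cyp17a1) one called at 30 min only, 1 (Cyp17a1) a higher one and 2 (Acot3 and Fmo2) a lower one. Cyp7b1, an oxysterol hydroxylase, had 2 regions called at 240 min only. The promoter region had no peak at 30 min, 2.04 and 1.54 PPM at 90 min and 1.59 and 1.09 PPM at 240 min. In the intron of Cyp17a1, a steroid hydroxylase, the region with 1 HNF6 motif had 6.3 and 3 PPM at 240 min and 1.93 and 1.14 PPM at 30 min (median-centred log2 change 1.27, SE 0.29, limma adjusted p = 0.0148). Its promoter region was called at 30 min, at 0.934 and 0.956 PPM, and in hypox males without GH, at 1.32 and 0.861 PPM, but not at 240 or 90 min. The Fmo2 intron region, at a flavin monooxygenase gene, had 0.689 and 0.772 PPM in hypox males without GH, 6.87 and 4 PPM at 30 min, 9.32 and 9.7 PPM at 90 min and 3.33 and 3 PPM at 240 min.

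The remaining lists held few genes in any class, and with all-gene shares of 7.67% at 240 min only and 5.93% at 30 min only, counts of 0 to 3 among 12 to 20 genes are not read as results about a list. Of 20 immediate-early genes, which respond within minutes to many stimuli, Fosb and Ier2 had a region called at 240 min only and Zfp36 one called at 30 min only, with 0 higher and 0 lower. The Zfp36 region, 1.98 kb upstream of this mRNA decay factor and with 1 consensus site, had 4.4 and 2.57 PPM at 30 min and a peak in 1 of the 2 pools of 90 min. Of 17 circadian genes with a region, Cry2 and Per2 had a region called at 240 min only and 0 had one called at 30 min only. Of 17 fasting genes with a region, Angptl4, Creb3l3 and Cyp4a10 had one called at 240 min only and Pdk4 one called at 30 min only. Of 19 lipogenic genes with a region, 0 had one called at 240 min only and 2 (Acaca and Elovl6) one called at 30 min only. Among 13 shared hepatocyte genes with a region, Apoa2 and Apob had a region called at 240 min only and Cps1, Cyp2e1 and Fgb a lower one. Among 12 ubiquitous genes, Eef2 had a lower region and 0 had a higher one. The list medians were between -0.0243 (immediate-early genes) and 0.184 (ubiquitous genes) on the median-centred log2 scale. Of the markers of other cells, Stab2 (endothelial) had a region called at 240 min only and Spp1 (cholangiocyte) one called at 30 min only. The endothelial list summed to 32.4 and 15 PPM at 240 min and 17.5 and 18 PPM at 30 min, and the cholangiocyte list to 11 and 5.53 at 240 min and 11.9 and 9.14 at 30 min. The Kupffer list summed to 21.3 and 12.1 at 240 min and 12.9 and 10.8 at 30 min, all of it from Cd68, and the lymphocyte list had no region. The stellate list summed to 5.86 and 2.46 at 240 min and 2.13 and 2.45 at 30 min, and the erythroid list to 12.7 and 6.96 at 240 min and 8.27 and 7.71 at 30 min. In each of these lists with a region the highest or next highest sum was that of pool 1 of 240 min, and the part of other cells in the results was not tested.

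Pools of the same time were more alike in pileup than pools of different times. Across the 14334 regions called in all 4 libraries, Pearson's r of log2 pileup was 0.912 within 240 min, 0.887 within 30 min and 0.801 to 0.843 between the times. These are correlations across regions, which are not independent replicates. By calls, the share of regions called by both pools among those called by either was 0.621 within 240 min, 0.697 within 30 min and 0.602 to 0.655 between the times. By this count the 240 min pools were no more alike than pools of different times, and pool 1 of 240 min had the longest list.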

How the data were processed

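DNase-seq was done by the submitters on pooled mouse livers, and 4 libraries, the 2 pools each of 240 and 30 min after GH, were compared. The submitters' processing notes name Bowtie2 and the mm9 build. Per the file headers, the caller was MACS2 2.1.0.20150731, run with no control, at a q cutoff of 0.05, with all duplicates kept, a shift of -100 bp, an extension of 200 bp and tags of 40 bp. The authors deposited, for every peak, the pileup signal at the summit, its fold (a ratio to local background) and its −log10 p and q. The deposited fold was used only to rank and describe peaks, and −log10 p and −log10 q only to rank and filter them. The lists of the single pools were used, with the authors' combined lists of the 240 and 30 min groups for one alternative. Mitochondrial peaks (7 per library) and the other combined lists were left out.

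Peaks on autosomes, X and Y were merged at 1 bp (median width 472 bp), and the highest pileup of a library in a region was divided by its total tags and multiplied by 1000000 (PPM). Regions called in all 4 libraries were tested with limma 3.58.1 in R 4.3.3 on log2 values with an intensity trend, no pseudocount and no covariate, adjusted by Benjamini-Hochberg at 0.05. The script was tested on simulated data. No count model could be used. Depth is the total tags per library, and no interval is given for single pileups. Pools of the 2 groups were not paired. Both strands of the 200 bp centred on each summit were scanned for motifs in Python 3.11.15 with pysam 0.24.0, on the mm9 assembly with GENCODE vM1. A region's summit was that of the peak with the highest PPM among the 4 libraries. The window of a region with a large change thus came from the time of higher pileup. Overlapping matches of different motifs were not excluded. A gene was linked to a summit in its body or within 10 kb upstream. Of 263 listed genes 260 were found in the annotation, 2 of them by an older name.

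Named were the 8 regions of highest mean fold in each class called at 1 time only, the 6 with the smallest p in each direction, every region of a direct GH and STAT5 target that was in a class or passed, and up to 4 genes of each other list, those with the highest fold. Regions at St6gal1, Mogat1, Tbx3, Pias1, Cpne8 and far upstream of Bcl6 were named after their values were seen, and other genes only as members of a count. One region that the rule names is not reported here. The regions, lists and tests were chosen with earlier results of these data known. The call counts and pileup tests were repeated with stricter peak cutoffs, lists of equal length, a larger overlap, other scalings, a replicate block, more libraries and each library left out.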

Additional observations from a re-analysis of the deposited data

How the results depend on the processing

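The count of regions called at 240 min only was 1297. It was 724 where the calling side needed −log10 q of at least 5 and 660 where the region also had to lack a peak in the combined list of 30 min, and it ranged from 1741 to 6976 with 1 library left out (6976 without pool 2 of 240 min, 1741 without pool 1). The count called at 30 min only was 1143 and ranged from 1285 to 3046 with 1 library left out (3046 without pool 1 of 240 min), because 1 pool then stands for a time. The other alternatives kept both counts within 1.5 times, and no paired analysis of calls was possible because they come from no fit. The STAT5 share was 2.9% to 4.6% at 240 min only and 25.7% to 41.2% at 30 min only over the q, combined-list and left-out-library alternatives. With 400 bp or the whole region searched it was 7.79% and 7.94% at 240 min only, against 51.3% and 54.2% at 30 min only.

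The pileup counts depended on the scaling. On the PPM scale they were 1 higher and 4 lower at 240 min. The pools share only a number (same-numbered pools' deviations correlated at r = 0.0765 over 14334 regions), and the replicate block gave 4 higher and 15 lower. With other settings, the sum of peaks gave 0 higher and 3 lower (635 and 245 at an unadjusted p below 0.05), a pseudocount of 0.5 gave 1 and 2, the 6 GH libraries 21 and 41, the 10 libraries of code G92 28 and 51, and no trend 10 and 24. Median centring gave 195 and 577, quantile normalization 133 and 453. Chosen after seeing the data, centring with the replicate block gave 536 and 922, and with the 10 libraries 104 and 487. With 1 library left out, the lone pool being assumed to vary like the others, higher counts ranged from 0 to 2533 and lower counts from 0 to 598 over both scalings. Without pool 2 of 240 min, PPM counts were 2533 and 125. Without pool 1 they were 6 and 171. Without either pool of 30 min they were 0 and 0, with 32 and 10 (pool 1) or 5 and 49 (pool 2) at an unadjusted p below 0.05. After centring (chosen after seeing the data) the counts were 48 and 332 without pool 1 of 240 min, 110 and 530 without pool 2, 200 and 205 without pool 1 of 30 min and 127 and 598 without pool 2. The STAT5 share stayed at 34.6% to 41.9% of lower and 1.82% to 5.5% of higher regions in the centred and quantile fits. Why the counts moved was not tested. No named region that was tested changed direction in the settings checked for it. That check left out the sum of peaks, the pseudocount, a filter on low pileup and the fit with no trend.

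Pools of 3 livers, 2 per time, peak lists in place of reads, and unequal list lengths limit precision. Regions without a peak have no value.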

Other observations

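Several of the largest median-centred changes, chosen after their values were seen, lay at other loci or far from a listed gene. A region at Mogat1, which encodes an enzyme of triglyceride synthesis, had 6.52 and 3.48 PPM at 240 min and 1.4 and 1.08 PPM at 30 min. One 338 kb upstream of Tbx3, a developmental transcription factor, had 5.5 and 5.32 PPM at 240 min and 1.33 and 1.49 PPM at 30 min. A region 62.7 kb upstream of Pias1, a listed gene which encodes an inhibitor of STAT signalling, had 6.95 and 4.43 PPM at 240 min and 1.53 and 1.61 PPM at 30 min. Lower at 240 min were the promoter of Cpne8, a copine gene, with 1.09 PPM in both pools at 240 min against 6.8 and 4.06 PPM at 30 min, and a region 95.8 kb upstream of Bcl6 with 1 consensus site, with 1.09 and 1.02 PPM at 240 min against 6.8 and 3.76 PPM at 30 min. Neither of these regions had a peak in hypox males without GH.

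Other motifs also differed between the sets. The NF-Y motif CCAATC was in 17.9% of the regions higher at 240 min and 6.24% of the lower ones, the cAMP response element TGACGTCA in 2.56% of the higher and 0.347% of the lower regions, and the E-box CACGTG in 7.69% of the higher and 3.29% of the lower regions. Outside promoters the NF-Y shares were 16.9% of the higher and 6.02% of the lower regions. In the tested regions that did not pass, the shares were 14.5% for NF-Y, 1.89% for the cAMP response element and 7.21% for the E-box. With promoters included, the higher regions were thus near these shares and the lower ones below. Over all 32566 regions the shares were 10.8%, 1.24% and 6.04%. Promoters, however, made up 46.2% of the regions that did not pass and 6.15% of the higher ones. Outside promoters the NF-Y share of the regions that did not pass was 9.02%. The cAMP response element was there in 2.73% of higher regions (5 of 183), 0.388% of lower ones and 0.781% of those not passing. For the E-box these shares were 8.2%, 2.91% and 5.51%. Outside promoters the higher regions were thus above those that did not pass for each of these motifs. Their part in the pileup differences was not tested.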
